A study of Mus musculus with 8 samples.

Results

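Il1b encodes the precursor of interleukin-1β, and its mRNA was found here in circulating neutrophils of mice given PBS. Here the PBS-primed peripheral blood (PB) neutrophils that held the most Il1b were compared with those that held the least. The cells were chosen by their measured Il1b level: within each of 4 plates they were ranked by Il1b UMIs over all UMIs of the cell, and the upper and the lower set of equal size were taken. These sets, called Il1b-high and Il1b-low below, held 115 cells each, 230 of the 348 PBS-primed PB neutrophils and of the 1421 cells in all, and 118 intermediate cells lay between them. A UMI (unique molecular identifier) marks a captured transcript, so that amplified copies are counted once.

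The neutrophils came from male C57BL/6J mice injected with PBS or with LPS at 0.5 mg/kg, and they were enriched from blood or bone marrow (BM), picked singly by pipette and profiled by SCRB-seq. The labels give the PBS samples as 0 h and the LPS samples as 4 h, whereas the study's methods describe a preparation 4 h after either injection. The deposited cell annotation puts samples 1 and 2 of the PBS blood group in batch 7. A plate here means the cells that share a name prefix, and each of these samples is counted as a plate. Plates 1 and 2 of batch 6 carry only the name of the group. No source states whether the plates were separate mice, so p-values here measure how the difference between the sets varied from plate to plate. LPS-primed PB neutrophils (363 cells, 4 plates) and PBS-primed BM neutrophils (439 cells, 6 plates) were split in the same way for comparison.

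As background, neutrophils make Il1b mRNA under NF-κB, AP-1 and C/EBP factors, downstream of Toll-like and C-type lectin receptors. The protein is cut to its active form by caspase-1 in inflammasomes or by neutrophil proteases, and Il1rn encodes the antagonist that competes for its receptor. Neutrophils load their granules in the marrow, shut granule genes down as they mature, and enter the blood with little new transcription apart from immediate early and inflammatory genes.

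Il1b lies on the minus strand of chromosome 2 (mm9, chr2:129190306-129196875). Windows from 250 bases before to 50 after the start are shown for Il1b, which chose the cells, and for Fos and Dusp1. Fos and Dusp1 are immediate early genes of the lists. The windows are from RefSeq on GRCm38.p6, each written 5′ to 3′ along its gene. Capitals mark matches to the AP-1 motif TGANTCA, the CRE motif TGACGTCA, the C/EBP motif TTGCNNAA or the κB motif, searched on both strands.
Il1b (GRCm38.p6, minus strand, chr2:129371090-129371389): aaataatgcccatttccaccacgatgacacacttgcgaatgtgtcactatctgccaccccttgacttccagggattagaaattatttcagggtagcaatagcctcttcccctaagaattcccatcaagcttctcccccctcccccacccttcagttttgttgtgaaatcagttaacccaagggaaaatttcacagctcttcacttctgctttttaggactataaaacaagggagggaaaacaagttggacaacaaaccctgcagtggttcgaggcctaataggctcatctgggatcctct
Fos (GRCm38.p6, plus strand, chr12:85473640-85473939): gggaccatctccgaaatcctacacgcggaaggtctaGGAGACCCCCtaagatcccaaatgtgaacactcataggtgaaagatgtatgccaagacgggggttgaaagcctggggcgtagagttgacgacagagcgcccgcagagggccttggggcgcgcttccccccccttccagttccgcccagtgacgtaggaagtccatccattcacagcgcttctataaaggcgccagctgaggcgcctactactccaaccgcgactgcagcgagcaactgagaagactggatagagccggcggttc
Dusp1 (GRCm38.p6, minus strand, chr17:26508423-26508722): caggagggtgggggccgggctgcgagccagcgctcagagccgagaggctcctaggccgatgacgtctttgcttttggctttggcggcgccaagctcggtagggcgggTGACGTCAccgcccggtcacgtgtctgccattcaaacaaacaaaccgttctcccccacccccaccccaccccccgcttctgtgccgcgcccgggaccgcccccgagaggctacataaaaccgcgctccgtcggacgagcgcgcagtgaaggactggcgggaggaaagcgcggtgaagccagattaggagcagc
The Il1b window held no match, the Fos window held a κB match that began 214 bases before the start, and the Dusp1 window held a CRE match that began 143 bases before it. The window of Ier5, another named immediate early gene, held no match and is not shown. Of the 32851 promoter windows of that table, 7.81% held the AP-1 motif, 1.79% the CRE, 10.8% the C/EBP and 8.46% the κB motif. Windows were found for 31 of 34 genes, Il1b and those named by rule in the resting cells. Of these, 4 held an AP-1, 2 a CRE, 5 a C/EBP and 7 a κB match in any of their windows. A match is a run of letters and was not tested as a site.

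Every one of the 348 PBS-primed PB neutrophils held at least 1 Il1b UMI. Levels are given as UMIs scaled to a total of 1000000 (CPM), per cell for Il1b and per thinned sum of a plate and set for other genes, and the 4 plates held 3240559 to 5330582 UMIs each. Il1b took 5550.5 CPM in sample 1, 6465.9 in sample 2, 8674.5 in plate 1 of batch 6 and 8516.9 in plate 2. In the median cell of the Il1b-high set it took 9240 CPM in sample 1, 11115.2 in sample 2, 14446.4 in plate 1 of batch 6 and 14327 in plate 2. In the median Il1b-low cell it took 1823.4, 2133.2, 3167.5 and 2490.3 in the same order, so that the medians of the sets differed 4.56- to 5.75-fold. These values describe the choice of the cells and were not tested. The Il1b-high cells carried 57.1 to 65.7% of the Il1b UMIs of their plate and the Il1b-low cells 9.88 to 11.8%.

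The levels ran on without a gap at the borders of the sets. The lowest Il1b-high cell and the highest intermediate cell held 7039.2 and 7020.3 CPM of Il1b in sample 1, 7938.9 and 7832.7 in sample 2, 10250.7 and 10091.9 in plate 1 of batch 6, and 10189.6 and 10012.7 in plate 2. The highest Il1b-low cell and the lowest intermediate cell held 3286.4 and 3522.1 in sample 1, 4056 and 4267 in sample 2, 5388.3 and 5401.2 in plate 1 of batch 6, and 4892.6 and 4983.3 in plate 2. The Il1b-low set had a tail of cells with little Il1b, down to 51.3 CPM, and the highest cell of all held 41177.3.

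**Figure D1:**
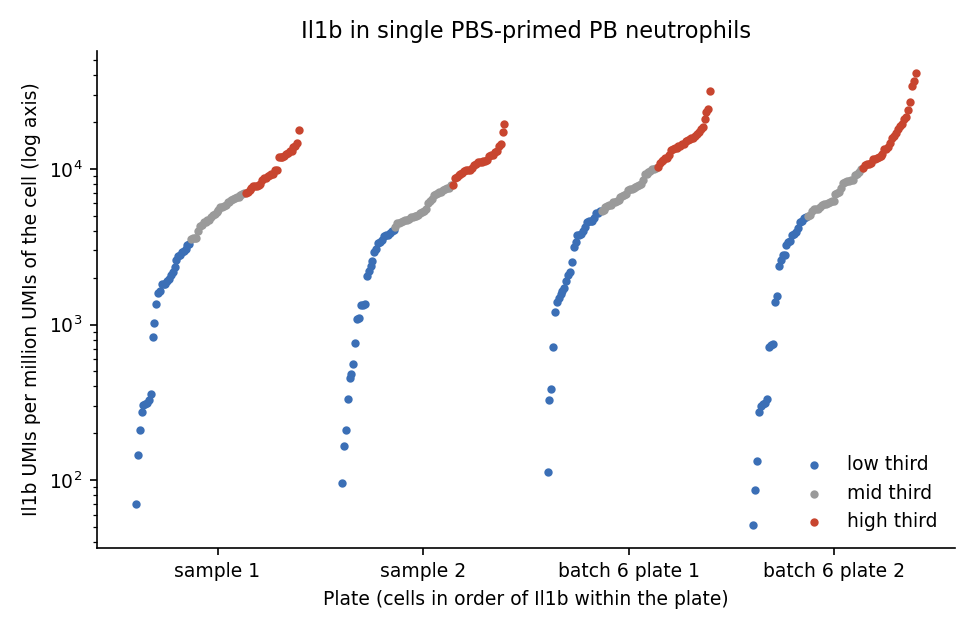
Il1b level (CPM) of each PBS-primed PB neutrophil (log axis) in the 4 plates, with cells in order of their level and the Il1b-low (blue), intermediate (grey) and Il1b-high (red) sets marked. Levels run on between the sets, and in each plate the Il1b-low set ends in a tail below 500 CPM.

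Depth was compared between the sets first. Median UMIs per cell in the Il1b-low and the Il1b-high set were 55015 and 43636 in sample 1, 32613 and 33856 in sample 2, 48320 and 42561 in plate 1 of batch 6, and 69995.5 and 64334 in plate 2. The Il1b-high median was the higher in 1 of 4 plates (exact sign-flip permutation test over plates, two-sided p = 0.25). With each cell thinned to 5000 UMIs after Il1b was left out, median genes per cell were 649 to 817 in the Il1b-low and 652.5 to 787 in the Il1b-high set, and 2 plates went each way (same exact test, p = 0.5). The authors' ratio of ERCC spike-ins, synthetic RNA added to each cell's lysate (the denominator is not stated), was 0.58 to 0.664 against 0.596 to 0.659, with Il1b-high higher in 1 of 4 plates (same exact test, p = 1). With 4 plates this test cannot go below 0.125. The authors' cluster 1 held 110 of the 115 Il1b-low and 114 of the 115 Il1b-high cells, so their clusters do not divide the sets. The plates drew on 93 cell barcodes, 76 of which occurred on all 4, and 2 barcodes fell in the Il1b-high set on all 4 plates and 2 in the Il1b-low set.

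Neutrophil markers were abundant in both sets. The 10 markers fixed for neutrophils, S100a8, S100a9 and Csf3r among them, summed to 132650 to 165900 CPM in the Il1b-low and 120978.6 to 161157.1 in the Il1b-high set. Markers of lymphocytes differed between the sets. The 9 T or NK cell markers of the table summed to 1213.3 CPM in the Il1b-low cells of sample 1, 1671.4 in sample 2, 2255.2 in plate 1 of batch 6 and 2428.6 in plate 2. In the Il1b-high cells the sums were 53.3, 28.6, 271.4 and 164.3 in the same order, with Cd3e at 0, so every Il1b-low value lay above every Il1b-high value. The 8 B cell markers summed to 40 to 2571.4 against 21.4 to 500, with Cd79a and Ms4a1 at 0 in the Il1b-high cells, and sample 1 went the other way. Monocyte markers (9 genes) summed to 386.7 to 1221.4 against 92.9 to 520, with Ace at 0 in both sets and Cx3cr1 and Ms4a6c at 0 in the Il1b-high cells, and sample 1 again went the other way. Platelet markers (7 genes) summed to 357.1 to 3544.8 against 192.9 to 3364.3, and hepatocyte markers (8 genes, Alb among them) to 82.8 to 4050 against 157.1 to 2850. Markers of eosinophils or basophils reached at most 235.7 CPM in any set and plate, with Mcpt8 at 0 throughout, and Alas2, the erythroid marker of the table, at most 35.7.

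The markers were concentrated in single cells. In 18 of the 115 Il1b-low cells (15.7%, exact Clopper-Pearson 95% interval 9.55 to 23.6), other-lineage markers (37 genes of B cells, T or NK cells, platelets, red cells, eosinophils or basophils and hepatocytes) made up at least 1% of the UMIs. The same held for 7 of 118 intermediate cells (5.93%, interval 2.42 to 11.8) and 6 of 115 Il1b-high cells (5.22%, interval 1.94 to 11). These intervals cover counting error only. By plate the Il1b-low cells numbered 1, 4, 7 and 6 and the Il1b-high cells 1, 1, 3 and 1 (samples 1 and 2, then plates 1 and 2 of batch 6). B cell or T or NK cell markers alone reached 1% in 13 cells, 10 of them Il1b-low, 2 intermediate and 1 Il1b-high. Their Il1b ran from 69.8 to 7039.2 CPM with a median of 721.2, and S100a8 had a median of 11538.6 in them and 79073.9 in the other 335 cells. Platelet markers reached 1% in 13 cells as well, which were spread over the sets (6 Il1b-low, 4 intermediate and 3 Il1b-high) and had a median of 6588.8 CPM of Il1b. All 31 cells stayed in the values below unless stated. Monocyte markers, which are not among the 37 genes, reached 1% in 1 further cell. That cell was Il1b-low and stayed in where the 31 were left out.

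**Figure D2:**
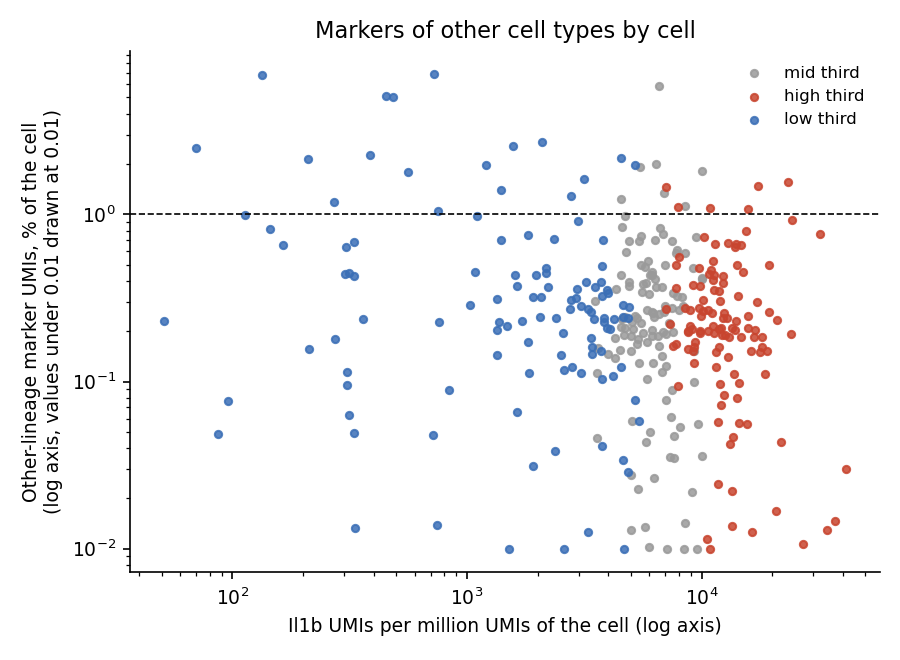
Other-lineage marker UMIs as a percent of all UMIs of a cell against its Il1b level, both on log axes, for the 348 PBS-primed PB neutrophils (blue Il1b-low, grey intermediate, red Il1b-high). Of the 31 cells at or above the dashed line at 1%, 18 are Il1b-low and 6 Il1b-high.

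Few genes other than Il1b separated the sets beyond the variation of their difference from plate to plate. Of 2061 genes tested on summed, thinned UMIs with the plate as a block, 3 passed an adjusted p of 0.05 (0.146%, edgeR's quasi-likelihood test with Benjamini-Hochberg adjustment), and all were lower in Il1b-high cells: Ms4a4b, AW112010 and Rpl13. No gene was called higher. At an unadjusted p under 0.05 there were 140 genes, 59 higher and 81 lower. A direction shared by at least 3 of 4 plates, a condition in the choice of the genes described here, held for 1296 genes (62.9%), of which 700 were higher and 596 lower, and 307 genes (14.9%) went the same way in all 4 plates. For 77 genes (3.74%) the 4 Il1b-high values and the 4 Il1b-low values did not overlap. Without the 31 cells, and with the sets ranked anew, edgeR called 0 of 1818 genes (0%), with 75 at an unadjusted p under 0.05 and a smallest adjusted p of 0.134, and 1146 genes (63%) shared a direction in at least 3 plates. DESeq2, on all cells, called 6 genes, all lower. Without plate 1 of batch 6 edgeR called 0 of 2176 genes (105 at an unadjusted p under 0.05), without plate 2 of batch 6 it called 1 (Ms4a4b), and without sample 1 it called 9, Ms4a4b, AW112010 and Rpl13 among them. Without sample 2 none of these 3 passed, and the 2 genes called were Lyz2 (lysozyme) and Ccl5 (a chemokine of T and NK cells).

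Ms4a4b (mm9, chr19:11518043-11538039, plus strand) encodes a membrane protein of T cells and was one of the T or NK cell markers. It stood at 246.7 CPM in the Il1b-low cells of sample 1, 357.1 in sample 2, 358.6 in plate 1 of batch 6 and 242.9 in plate 2. In the Il1b-high cells it stood at 0, 7.14, 7.14 and 0, which is 2 UMIs in all against 173. The ratio of the sums was 85.7 (95% counting interval 23.4 to 714) and the fitted log2 fold change was -6.23 ± 0.93 (SE, adjusted p = 0.00478, edgeR). The counting interval takes each UMI as independent and leaves out the spread between cells and plates. The transcripts lay in 13 of the 115 Il1b-low cells, and 80.9% of them in the 18 cells with other-lineage markers, a set that Ms4a4b itself helps to define. The intermediate cells held 0 to 13.3 CPM, close to the Il1b-high cells.

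AW112010 (mm9, chr19:11122103-11125056, minus strand), a transcript known from lymphocytes and from activated macrophages, stood at 220, 221.4, 689.7 and 642.9 CPM in Il1b-low cells and at 13.3, 35.7, 78.6 and 21.4 in Il1b-high cells, with plates in the same order. Every Il1b-low value lay above every Il1b-high value, and the intermediate cells held 6.67 to 46.7 (log2 fold change -3.62 ± 0.59, adjusted p = 0.0089, edgeR). It was seen in 18 cells of each set, but 74.4% of its Il1b-low UMIs lay in the 18 cells with other-lineage markers, which were 15.7% of the set. Neither AW112010 nor Ms4a4b had counts enough to be tested without those cells.

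Rpl13 (mm9, chr8:125626250-125629144, plus strand), a protein of the large ribosomal subunit, stood at 313.3, 1464.3, 944.8 and 878.6 CPM in Il1b-low and at 220, 335.7, 164.3 and 192.9 in Il1b-high cells. It was lower in Il1b-high cells of all 4 plates, although the Il1b-low value of sample 1 lay below the Il1b-high value of sample 2 (log2 fold change -1.90 ± 0.37, adjusted p = 0.04, edgeR). The cells with other-lineage markers held 46.3% of its Il1b-low UMIs. Without them the log2 fold change was -1.48, lower in 3 of 4 plates, and the adjusted p was 0.993.

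Other genes of the ribosome lay on the same side without passing the test as run here. Rpsa, which encodes a protein of the small subunit, stood at 178.6 to 979.3 CPM in Il1b-low and 28.6 to 92.9 in Il1b-high cells (log2 fold change -2.62 ± 0.58, adjusted p = 0.113). For Rps19 the ranges were 200 to 1142.9 and 64.3 to 214.3 (-2.07 ± 0.46, adjusted p = 0.113). Of 18 alternatives, Rps19 passed in 5, another draw of 5000 UMIs and DESeq2 among them (adjusted p from 0.00248 to 0.999), and Rpsa in 3 (0.00666 to 0.999). Of the 80 ribosomal protein genes of the list, 67 were tested, 1 was called (Rpl13), and 48 were lower and 0 higher in at least 3 plates, beside 62.9% of all genes in either direction. Their median log2 fold change was -0.88, against 0.03 over all genes. These genes made up 2.29, 3.52, 3.02 and 2.76% of the thinned UMIs of the Il1b-low cells and 1.94, 1.92, 1.77 and 1.68% of those of the Il1b-high cells, without overlap. The 13 cells with lymphocyte markers had a median of 6.82% of their UMIs in these genes and the other 335 cells 1.66%. Without the 31 cells the mean share over cells was 2.02, 2.43, 2.39 and 2.2% in the Il1b-low set. In the Il1b-high set it was 1.8, 1.85, 1.67 and 1.67%, again without overlap. The intermediate cells, at 1.77, 1.72, 1.95 and 1.66%, lay close to the Il1b-high cells. Of the 335 cells with lymphocyte markers under 1%, 282 held no Ms4a4b UMI and the highest held 5523 CPM, so some cells with lymphocyte transcripts stayed in. Whether these account for the remaining gap was not tested. Without the 31 cells, 55 members were tested, 33 were lower and 8 higher in at least 3 plates, and the median log2 fold change was -0.59. Counts of ribosomal protein genes are uncertain where reads are shared with their pseudogenes.

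The 5 genes next by p among those higher in Il1b-high cells of all 4 plates did not pass the test. Clec7a (mm9, chr6:129411611-129422790, minus strand), which encodes the β-glucan receptor dectin-1, came first. It stood at 1473.3 CPM in the Il1b-low cells of sample 1, 1057.1 in sample 2, 1020.7 in plate 1 of batch 6 and 678.6 in plate 2. In the Il1b-high cells it stood at 2100, 2007.1, 1842.9 and 1792.9, above every Il1b-low value (log2 fold change 0.87 ± 0.22, adjusted p = 0.261). A UMI was seen in 75.7% of Il1b-low and 90.4% of Il1b-high cells at 5000 UMIs. Without the 31 cells the log2 fold change was 0.71, higher in 4 of 4 plates, and it was 0.69 within batch 7 and 1.09 within batch 6.

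Cers6, a ceramide synthase, stood at 7.14 to 158.6 CPM in Il1b-low and 107.1 to 535.7 in Il1b-high cells (log2 fold change 2.31 ± 0.62, adjusted p = 0.323), with 31% of its Il1b-low UMIs in 2 cells. Pilrb1, of a family of activating receptors with paired inhibitory members, stood at 128.6 to 306.7 and 406.7 to 614.3 without overlap (1.40 ± 0.42, adjusted p = 0.55). Ier5, an immediate early gene, stood at 853.3, 471.4, 827.6 and 578.6 in Il1b-low and at 1266.7, 1271.4, 1121.4 and 1221.4 in Il1b-high cells (0.82 ± 0.26, adjusted p = 0.55). Its values did not overlap, and in each plate the intermediate cells lay between, at 1126.7, 980, 1106.7 and 835.7. Itgal, the α chain of the integrin LFA-1, stood at 307.1 to 750 and 506.7 to 1492.9 (0.86 ± 0.27, adjusted p = 0.55). Reads of Pilrb1 may be shared with its paralogs.

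**Figure D3:**
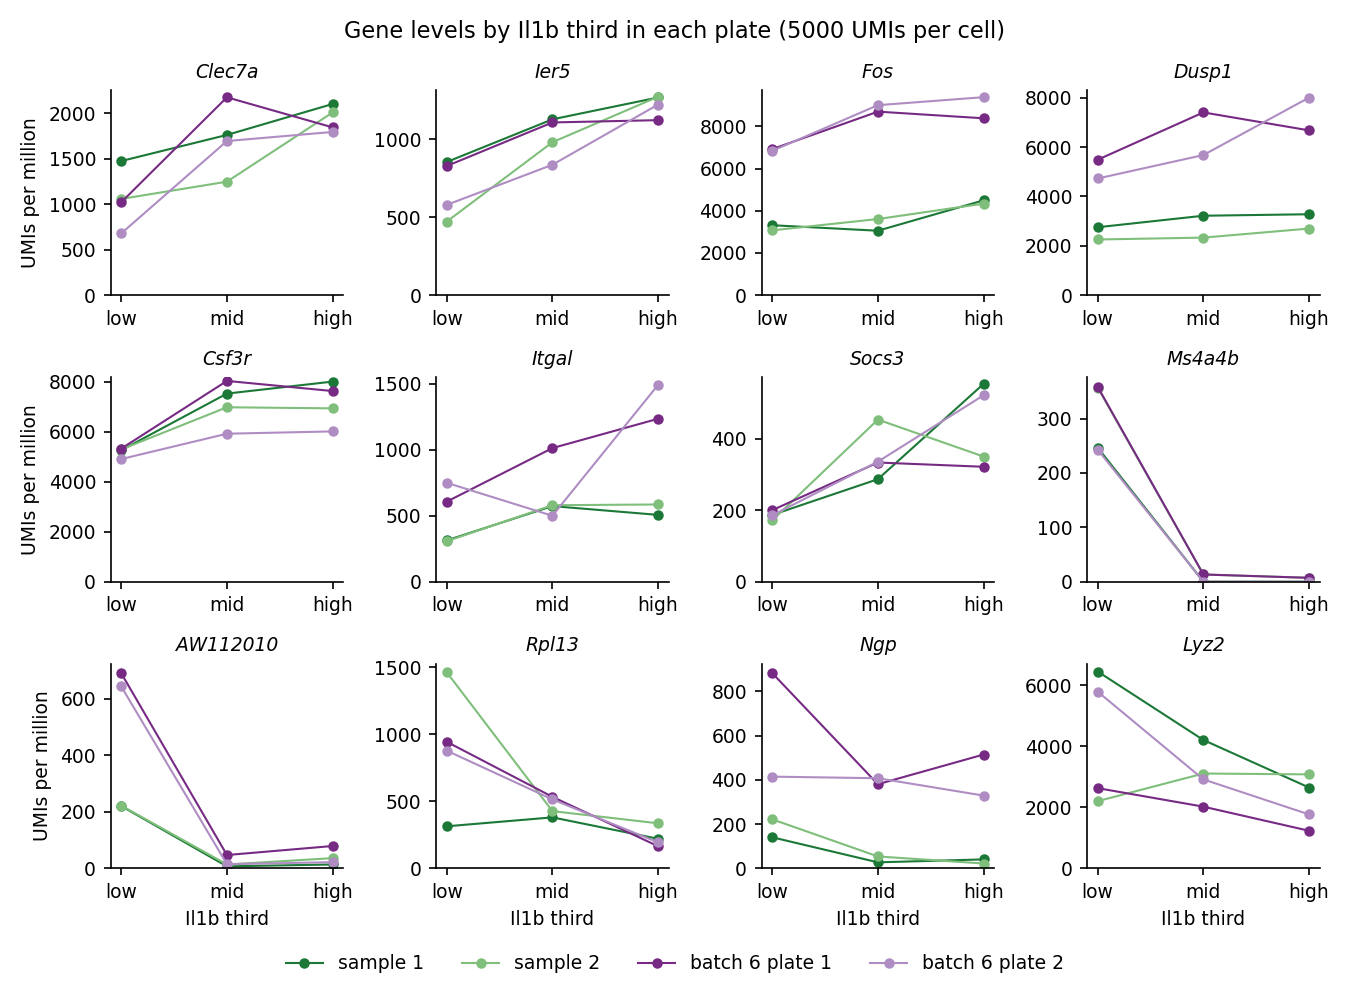
CPM (linear axes from 0) of 12 genes in the Il1b-low, intermediate and Il1b-high cells of each plate, after thinning each cell to 5000 UMIs. Ms4a4b falls from 242.9 to 358.6 in Il1b-low cells to at most 13.3 in the others, whereas Clec7a, Ier5 and Csf3r are higher in the Il1b-high than in the Il1b-low cells of all 4 plates.

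Most of the immediate early genes tested, whose transcripts appear within minutes of a signal and need no new protein, lay higher in Il1b-high cells of at least 3 plates, without a call. Of the 24 in the list, 21 were tested and 0 passed in either direction. In at least 3 plates 16 of them were higher and 0 lower, and in all 4 plates 7 were higher, beside the 62.9% and 14.9% of all genes in either direction. Their median log2 fold change was 0.34, against 0.03 over all genes. Fos, a subunit of AP-1, stood at 3313.3 CPM in the Il1b-low cells of sample 1, 3071.4 in sample 2, 6917.2 in plate 1 of batch 6 and 6835.7 in plate 2. In the Il1b-high cells it stood at 4493.3, 4335.7, 8378.6 and 9378.6. Both sets of batch 6 lay above both sets of batch 7, and within each plate the Il1b-high cells were higher (log2 fold change 0.37 ± 0.14, adjusted p = 0.625, with 0.44 within batch 7 and 0.34 within batch 6). Dusp1, a phosphatase of MAP kinases, stood at 2753.3, 2257.1, 5489.7 and 4728.6 in Il1b-low and at 3280, 2700, 6678.6 and 8007.1 in Il1b-high cells (0.34 ± 0.16, adjusted p = 0.717). Atf3, a stress-induced member of the AP-1 families, stood at 13.3, 7.14, 151.7 and 85.7 against 53.3, 85.7, 350 and 471.4 (2.07 ± 0.72, adjusted p = 0.625) and is named after its values were seen. Junb, also of AP-1, had a log2 fold change of 0.08 ± 0.18. Without the 31 cells the list had 20 tested members, 15 higher and 1 lower in at least 3 plates, with a median of 0.22. Only 3 members were then higher in all 4 plates. Without those cells the log2 fold change was 0.24 for Fos, 0.79 for Ier5 and 2.14 for Atf3, each higher in 4 plates. For Dusp1 it was 0.12, higher in 3 plates and lower in 1.

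NF-κB genes gave few testable members. Of 20, 7 were tested, 0 were called, 5 were higher and 0 lower in at least 3 plates, beside the 62.9% of all genes in either direction, and the median log2 fold change was 0.65, against 0.03 over all genes. Socs3, an inhibitor of cytokine signaling, stood at 186.7, 171.4, 200 and 185.7 CPM in Il1b-low and at 553.3, 350, 321.4 and 521.4 in Il1b-high cells, without overlap (1.14 ± 0.43, adjusted p = 0.625). Nfkbia, the inhibitor that NF-κB induces against itself, stood at 520, 592.9, 517.2 and 335.7 against 760, 785.7, 842.9 and 392.9 (0.42 ± 0.30, adjusted p = 0.903). Tnfaip2 had a log2 fold change of 0.65 ± 0.25 and was lower in Il1b-high cells of sample 2 alone, at 1228.6 against 1471.4.

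Other cytokines gave no call. Of 19 cytokine and chemokine genes, 10 were tested and 0 were called. In at least 3 plates 4 were higher and 2 lower, beside the 62.9% of all genes in either direction. Il1rn, the receptor antagonist, stood at 306.7, 450, 358.6 and 442.9 CPM in Il1b-low and at 493.3, 564.3, 514.3 and 692.9 in Il1b-high cells, without overlap (0.49 ± 0.33, adjusted p = 0.885). Ptgs2, the inducible cyclooxygenase, stood at 0 in the Il1b-low cells of both samples of batch 7 and at 958.6 and 535.7 in batch 6, against 173.3, 57.1, 1342.9 and 907.1 in the Il1b-high cells (1.54 ± 0.59, adjusted p = 0.625). The chemokine Ccl6 stood at 2507.1 to 3366.7 and 2564.3 to 3733.3 (-0.04 ± 0.17, adjusted p = 0.996). Of 14 genes of IL-1 processing and its receptors, 8 were tested and 0 were called. In at least 3 plates 3 were higher and 1 lower, beside the same 62.9%, and the median was -0.10. Txnip, a redox protein that binds NLRP3, had a log2 fold change of 0.12 ± 0.19.

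Genes of adhesion, migration and ageing counted 9 higher and 0 lower in at least 3 plates among 13 tested of 18, with 0 called and a median log2 fold change of 0.40 (0.03 over all genes). The share of all genes in either direction was 62.9%. Csf3r, the receptor for G-CSF, stood at 5260, 5292.9, 5324.1 and 4907.1 CPM in Il1b-low and at 8006.7, 6935.7, 7628.6 and 6014.3 in Il1b-high cells. The Il1b-low values lay close together and below every Il1b-high value, and the intermediate cells, at 7526.7, 6980, 8033.3 and 5921.4, lay above them too (0.40 ± 0.14, adjusted p = 0.625). Cxcr2, the receptor for Cxcl1 and Cxcl2, had a log2 fold change of -0.02 ± 0.18. Of 22 receptors of pattern recognition and activation, 16 were tested, with 10 higher and 5 lower in at least 3 plates and 0 called. C5ar1, the receptor for C5a, had a log2 fold change of 0.17 ± 0.24.

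Most granule and maturation genes tested lay lower in Il1b-high cells of at least 3 plates, without a call. Of 27 in the list, 17 were tested, 0 were called, and 3 were higher and 11 lower in at least 3 plates, beside the 62.9% of all genes in either direction (596 of 2061 lower). The median log2 fold change was -0.24, against 0.03 over all genes (-0.08 with all UMIs in place of 5000, against -0.01 over all genes). Without the 31 cells 16 were tested, 2 were higher and 11 lower, and the median was -0.40. Ngp, a protein of specific granules, stood at 140, 221.4, 882.8 and 414.3 CPM in Il1b-low and at 40, 21.4, 514.3 and 328.6 in Il1b-high cells (-1.39 ± 0.51, adjusted p = 0.625). Lyz2, lysozyme, stood at 6453.3, 2200, 2627.6 and 5792.9 against 2646.7, 3078.6, 1228.6 and 1764.3, lower in 3 plates and higher in sample 2 (-0.97 ± 0.26, adjusted p = 0.323). The call depended on the draw, the filter and sample 2: Lyz2 passed in 4 of 18 alternatives, namely with another draw of 5000 UMIs, with thinning before Il1b was left out, with no filter on low counts and without sample 2. Its adjusted p ran from 0.00125 to 0.999 over all 18. S100a8, which with S100a9 forms calprotectin, stood at 74078.6 to 89471.4 and 64985.7 to 88692.9 (-0.19 ± 0.09, adjusted p = 0.717). Without the 31 cells its log2 fold change was -0.35, lower in 4 of 4 plates (adjusted p = 0.134), and with all UMIs in place of 5000 the sign turned, to 0.05.

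The remaining lists had 0 calls, and their counts stand beside the 62.9% of all genes that shared a direction in at least 3 plates. Of 28 interferon-induced genes 20 were tested, with 7 higher and 5 lower in at least 3 plates and a median log2 fold change of -0.06 (0.16 with all UMIs). Ifitm1, an antiviral membrane protein, stood at 1320 to 1721.4 CPM in Il1b-low and 1792.9 to 2535.7 in Il1b-high cells without overlap (0.47 ± 0.21, adjusted p = 0.692), and Slfn4 had a log2 fold change of -0.04 ± 0.23. The survival list had 4 tested of 13, with 3 higher and 0 lower, and its Mcl1, which keeps neutrophils alive, had a log2 fold change of 0.21 ± 0.18, with Pim1 at 0.81 ± 0.74. Glucocorticoid targets had 6 tested of 11, with 3 higher and 1 lower. Genes of oxidant defence and ferritin had 9 tested of 19, with 4 higher and 2 lower, Fth1 (ferritin heavy chain) at 0.30 ± 0.13 and Ftl1 (light chain) at 0.03 ± 0.15. Heat shock genes had 6 tested of 12, with 3 each way and a median of 0.19 (-0.40 with all UMIs), Hspa8 at -0.75 ± 0.47 and Hsp90ab1 at -0.37 ± 0.64. Glycolysis genes had 10 tested of 18, with 3 higher and 2 lower, Pkm at -0.10 ± 0.22 and Aldoa at -0.08 ± 0.28. Of the 9 monocyte markers 3 were tested, and 2 were lower in at least 3 plates.

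**Figure D4:**
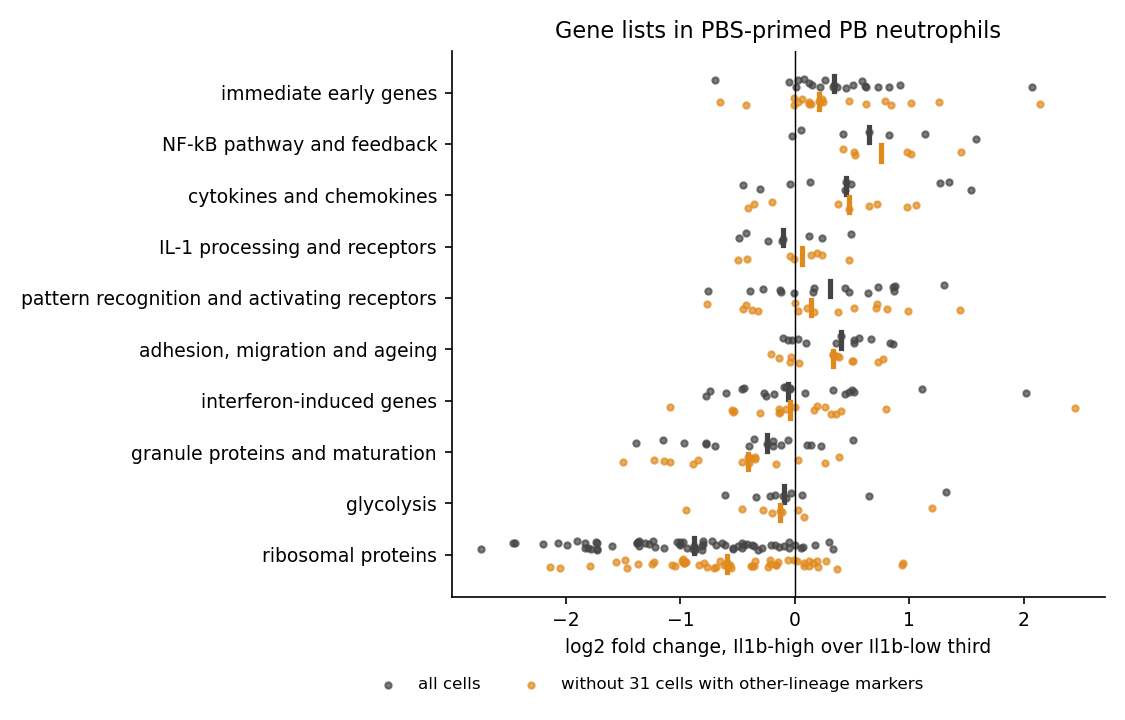
Log2 fold change (Il1b-high over Il1b-low) of each tested gene in 10 lists, with all cells (grey) and without the 31 cells with other-lineage markers (orange), and the median of each list as a bar. Ribosomal protein genes have the lowest median with all cells (-0.88), granule genes lie mostly below 0, and immediate early, NF-κB and adhesion genes mostly above.

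The same split in LPS-primed PB neutrophils, where the medians of the sets lay 32.7- to 53.2-fold apart in Il1b, called 69 of 1417 genes, 41 higher (2.89%) and 28 lower (1.98%, edgeR). The cells of the sets there differed in the authors' clusters, with 103 of 119 Il1b-low and 80 of 119 Il1b-high cells in cluster 2 and 11 and 38 in cluster 1. Among the genes that rose in Il1b-high cells was Clec7a, from 6.45 to 300 CPM over the 4 Il1b-low sums to 271 to 1126.7 over the Il1b-high sums (log2 fold change 2.72 ± 0.48, adjusted p = 1.94e-05). Csf3r rose by 1.21 ± 0.25 on the log2 scale (adjusted p = 0.000354), Socs3 by 1.99 ± 0.42, Nfkbia by 1.34 ± 0.24 and the chemokine Ccl3 by 3.09 ± 0.35. Fos was not called there (0.96 ± 0.39, adjusted p = 0.16, edgeR). Nor were Ier5 (0.75 ± 0.34), Itgal (0.38 ± 0.43), Pilrb1 (0.03 ± 0.45) and Cers6 (-0.25 ± 0.49). Immediate early genes gave 5 calls among 18 tested, all higher (Junb, Btg1, Dusp1, Klf2 and Nr4a1), and NF-κB genes 6 among 13, all higher. Granule genes gave 13 calls among 20, all lower, with Ngp at -2.74 ± 0.21, Camp at -2.67 ± 0.25 and Ltf at -3.15 ± 0.28. Of the 39 ribosomal protein genes tested there, 0 were called, and their median was 0.02.

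In PBS-primed BM neutrophils Il1b was scarcer than in PBS blood. Over the 6 plates the median Il1b-high cell held 67.5 to 4629.1 CPM of Il1b and the median Il1b-low cell 0 to 103.5. In plate 2 of batch 6, 32 of 91 cells held no Il1b UMI, so ties at 0 were split at random there. In these BM neutrophils 81 of 1335 genes were called, 45 higher (3.37%) and 36 lower (2.7%, edgeR). Of the Il1b-high cells 36 of 144, against 2 of 144 Il1b-low cells, were in cluster 1. Fos rose by 2.04 ± 0.34 on the log2 scale (adjusted p = 0.000781), Clec7a by 2.45 ± 0.39 and Csf3r by 1.74 ± 0.24. Not called in marrow were Ier5 (1.29 ± 0.54), Cers6 (0.37 ± 0.54), Itgal (0.12 ± 0.40), Pilrb1 (-0.02 ± 0.43) and Nfkbia (0.0 ± 0.38). Granule genes gave 14 calls among 21, all lower, and immediate early genes 7 among 13, all higher. With library size in place of TMM scaling the median of all genes was 0.23 in LPS blood and 0.25 in marrow, with a split of 78 higher and 19 lower in LPS blood and of 81 higher and 20 lower in marrow. Of the 50 genes called in LPS blood that were also tested in PBS blood, 35 (70%) had the same direction in at least 3 PBS blood plates and 7 the opposite one, beside the 700 higher and 596 lower among all 2061 genes.

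**Figure D5:**
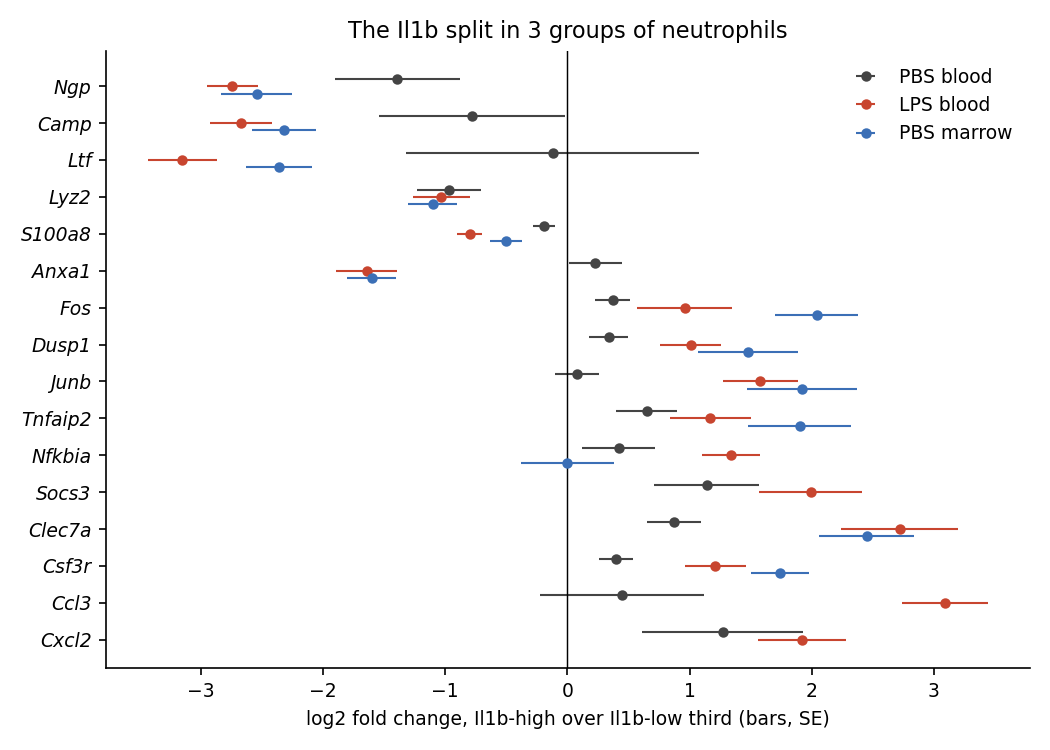
Log2 fold change (Il1b-high over Il1b-low, bars SE) of 16 genes in PBS blood (grey), LPS blood (red) and PBS marrow (blue). Clec7a lies at 0.87, 2.72 and 2.45, Ngp at -1.39, -2.74 and -2.54, and Anxa1 at 0.23, -1.64 and -1.60.

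Whether the split differed between LPS and PBS blood was tested itself, and 9 of 2644 genes (0.34%) passed (edgeR, interaction of group and set). Anxa1, annexin A1, stood at 1092.9 to 2121.4 CPM in Il1b-low and 1420 to 2192.9 in Il1b-high PBS cells, and at 2316.1 to 3871.4 and 766.7 to 1526.7 in LPS cells (difference of log2 fold changes -1.91 ± 0.36, adjusted p = 0.00547). Ltf differed by -3.05 ± 0.58 (adjusted p = 0.00547) and Camp by -2.17 ± 0.48 (adjusted p = 0.0247). Both were scarce in PBS blood, with 35 and 31 UMIs of Ltf and 87 and 70 of Camp in the Il1b-low and Il1b-high cells. Without the cells with other-lineage markers 2 genes passed, Anxa1 and Ltf. For Clec7a the difference was 1.77 (adjusted p = 0.201), for Fos 0.54 (adjusted p = 0.826) and for Csf3r 0.77 (adjusted p = 0.437), so no difference between the groups was shown for them.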

How the data were processed

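UMI counts of 10970 genes in 1421 cells were taken as deposited. Per the methods, the authors trimmed reads with Cutadapt 1.15, aligned them to mm9 with STAR 2.6.0a, removed duplicates by UMI, counted unique reads with HTSeq 0.11.2 and filtered cells; the gene annotation is not given in the sources used here. The deposited ERCC ratio is a fraction whose denominator is not stated, and the deposited cluster label (0, 1 or 2, by the authors with Seurat) is a category, not a score. The members and lists were chosen with earlier results of these data known.

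Il1b was left out and each cell was thinned to 5000 UMIs without replacement, which dropped 1 Il1b-high cell of PBS blood (plate 1 of batch 6). UMIs were summed per plate and set, 140000 to 150000 UMIs a sum, and tested with edgeR 4.0.16 in R 4.3.3 (filterByExpr, TMM, glmQLFit, glmQLFTest, plate as a block). The replicate block pairs the sets because both come from the same plate: their deviations from the set means correlated by 0.166, 0.141, 0.163 and 0.153 within samples 1 and 2 and plates 1 and 2 of batch 6. Between different plates of the same batch the correlations were nearly as high, 0.069 to 0.129. Across batches they were -0.187 to -0.087. DESeq2 1.42.0 was an alternative. Doublets were not called. Cells were picked singly, but whether the cells with other-lineage markers held RNA of more than 1 cell was not tested. Scripts were tested on simulated data. CPM are of thinned sums, where 1 UMI in a cell is worth 200 CPM of that cell. Gene coordinates are from GENCODE's mm9 annotation. Shares have exact intervals at 95%.

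Named genes were Il1b, Fos, up to 12 called genes a direction with 50 CPM and a UMI in 10% of cells of the higher set, the next by p up to 5 where fewer passed, and the called or else the 2 most abundant members of each list; list members called in LPS blood were added after their values were seen. The ribosomal list takes symbols Rpl or Rps with a digit, without pseudogenes and Rps6k kinases, so Rpsa is not in it.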

Additional observations from a re-analysis of the deposited data

Results flagged for a closer look

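The Il1b split differed between LPS and PBS blood at an adjusted p under 0.05 (edgeR) for 9 genes. On the log2 scale, LPS minus PBS, it was -1.91 for Anxa1, -2.17 for Camp, -3.05 for Ltf, -0.65 for S100a8, 2.54 for Ccl3, 3.62 for Cxcl10, 3.87 for Usp18 and 5.1 for Ppbp. Ccl5, a chemokine of T and NK cells, had 0 UMIs in the Il1b-low cells of LPS blood against 378 in those of PBS blood, so that only its adjusted p is given, 1.02e-08. Cxcl10 rested on 12 and 3 UMIs and Usp18 on 49 and 5 UMIs in the Il1b-low and Il1b-high cells of PBS blood. In the same order Ltf rested on 35 and 31, Camp on 87 and 70 and Ccl3 on 68 and 122. Ppbp, a platelet gene, rested on 2 and 58 UMIs in the Il1b-low and Il1b-high cells of LPS blood. Without the cells with other-lineage markers the adjusted p was 0.105 for Ccl5, 0.411 for Ppbp, 0.145 for S100a8 and Ccl3, 0.0862 for Camp, 0.0609 for Cxcl10 and 0.095 for Usp18.

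Of 37 sets of 4 plates, 2 had a plate far from the others, and chance alone marks about 1 in 20. The log2 ratio of Il1b-high over Il1b-low was -0.25 for Rps19 in sample 1 against -2.36, -2.77 and -2.36 in the other plates. For Dusp1 it was 0.76 in plate 2 of batch 6 against 0.25, 0.26 and 0.28. These ratios were computed with 10 CPM added.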

How the results depend on the processing

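The alternatives for LPS blood by batch, by cluster and without marker cells, and those for marrow and the difference without marker cells or a plate, were chosen after seeing the data. For PBS blood the 3 calls became 7 with all UMIs, 6 with another draw, 6 with thinning before Il1b was left out, 10 without a filter on low counts, 6 with DESeq2, 1 in the main cluster alone and 0 without cells of other-lineage markers, all lower. Batch 7 alone and batch 6 alone gave 0 each (82 and 111 genes at an unadjusted p under 0.05). Without a plate the count ran from 0 (without plate 1 of batch 6, 105 at an unadjusted p under 0.05) to 9 (without sample 1), with 1 without plate 2 of batch 6 and 2 without sample 2. With no replicate block it was 2, so the paired fit changed the count little. For LPS blood the 69 calls became 35 with all UMIs, 17 with no replicate block, 107 in the LPS cluster alone and 22 in batch 7 alone, and 33 to 80 without a plate (33 and 36 without plates 1 and 2 of batch 6). For marrow the 81 became 194 with all UMIs and 30 to 82 without a plate (30, 33 and 48 without plates 31 and 32 of batch 6 and sample 2). For the difference the 9 became 1 with all UMIs, 2 without cells of other-lineage markers and 5 to 17 without a plate (5 without plate 1 of batch 6 and 17 without sample 1 of PBS blood, 15 and 14 without samples 1 and 2 of LPS blood). With library size the difference split into 8 higher and 2 lower, against 5 and 4, as its median over all genes moved from 0.05 to 0.3. The causes were not tested, other than that fewer cells, plates or genes entered some fits.

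Ms4a4b, AW112010 and Rpl13 kept their sign in every alternative that could test them (16, 17 and 18) and passed in 12, 11 and 9. Clec7a, Ier5, Fos, Csf3r and Socs3 kept theirs in all 18 and passed in none. Over 52 genes and 916 values, 849 moved by less than the spread between plates or kept their call, 36 moved by more, 12 passed only under the alternative and 19 no longer passed. At 5000 UMIs a cell, scarce transcripts could not be tested, and with 4 plates moderate differences may go undetected.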
